A study of Mus musculus with 40 samples.

Results

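Mouse pups that undergo repeated cross fostering (RCF) are handed to a different foster dam every day, here on postnatal days 1 to 4. Adult C57/Bl6 females with that history were compared with adult C57/Bl6 females that had been left unhandled, to ask whether the change of mothers left a trace in gene expression of the ventral tegmental area (VTA). Messenger RNA was sequenced from tissue punched out of the VTA of flash-frozen brains. The comparison rests on 10 of the 40 libraries of the series, 5 labelled RCF and 5 labelled control, taken by their group labels and described across all genes. C57 males and DBA females, also 5 RCF and 5 control libraries each, are used at the end to ask whether a difference seen in C57 females differs from theirs. The labels give no transgene, drug or adult treatment for any of these animals. They do not say which animal or litter a library came from, or whether tissue was pooled, so p-values measure only the spread between libraries. In the main fit that spread was estimated over all 40 libraries of the series, not over these 10 alone.

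The VTA is a small midbrain nucleus whose dopamine neurons project to the striatum, prefrontal cortex and amygdala and take part in reward learning, motivation and the response to stress. These neurons make dopamine with tyrosine hydroxylase (Th), load it into vesicles with Slc18a2 and take it back up with the transporter Slc6a3. They lie among GABA and glutamate neurons, glia and vessels. The mammillary bodies and posterior hypothalamus lie in front of the VTA, and the serotonin neurons of the raphe lie behind it. A punch of the region can hold different amounts of these neighbours, and in bulk tissue fewer cells of a type cannot be told apart from less RNA per cell.

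Depth was even, from 21208208 to 23705693 total counts in the RCF libraries and from 21603360 to 24985895 in the controls, and values are given as CPM, which are read counts scaled to library size, here with TMM factors. The marker genes of the labelled tissue were uneven. Th was at 1068, 726, 841, 0.725 and 1259 CPM in RCF libraries 1 to 5, against 10.7, 27.8, 1099.8, 557 and 29.1 CPM in control libraries 1 to 5. Slc6a3 was at 1661, 1212, 1353, 0.569 and 1601 CPM in RCF libraries 1 to 5, against 1.88, 7.32, 1702, 760.4 and 1.84 CPM in control libraries 1 to 5. RCF library 4 thus held almost no dopamine neuron RNA, and control libraries 1, 2 and 5 held little. The summed level of the 23 dopamine neuron genes was 8678, 6357, 6966, 417 and 8931 CPM in the RCF libraries and 629, 939, 8515, 4365 and 785 CPM in the controls, and 1 of the 23 genes was at 0 in RCF library 4 and 0 of them in any other library.

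RCF library 4 also stood apart in other markers. Hox genes, which mark the hindbrain and spinal cord, summed to 0.397, 0.629, 0.707, 196 and 0.771 CPM over 15 genes in RCF libraries 1 to 5, against 0.230 to 0.457 CPM in the controls. In RCF library 4 Hoxb3, Hoxb5 and Hoxc4 were at 41.2, 33.8 and 33.0 CPM, and 1 of the 15 genes, Hoxb7, was at 0. Its mean correlation with the other libraries of its group was 0.946 over all genes tested, against 0.971 to 0.979 for each of the other 9 libraries. Control libraries 1 and 5 stood apart in a different way: genes of the hypothalamus and mammillary body summed to 74.9, 113, 104, 28.9 and 83.3 CPM in RCF libraries 1 to 5, against 612, 201, 66.7, 112 and 529 CPM in control libraries 1 to 5. Results are therefore given with all 10 libraries, without RCF library 4, and, as a choice made after seeing the data, for the 6 libraries with Th over 100 CPM, which are 4 RCF and 2 control libraries.

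**Figure D1:**
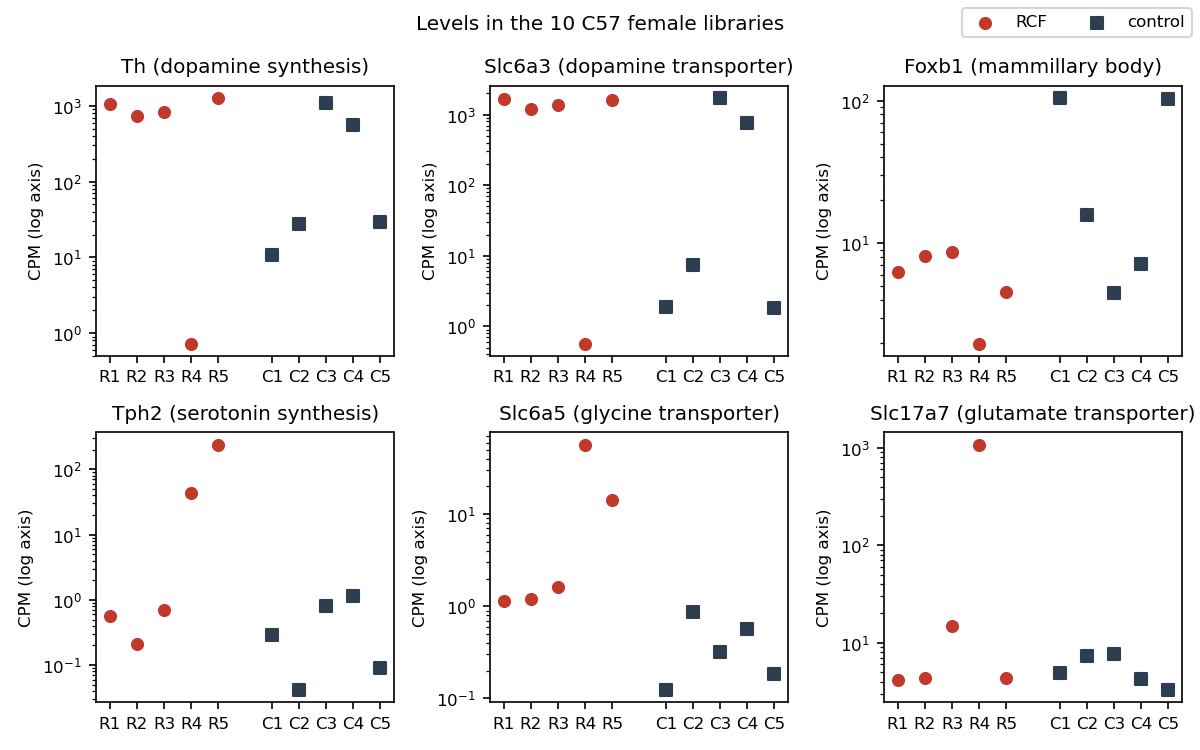
Level of 6 marker genes in each of the 10 C57 female libraries (CPM, log axis), with RCF libraries R1 to R5 as red circles on the left and control libraries C1 to C5 as dark squares on the right of each panel. Th and Slc6a3 were low in R4, C1, C2 and C5, Foxb1 was high in C1 and C5, Tph2 was high in R4 and R5, and Slc17a7 was high in R4.

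Across all 18441 genes tested, 1 gene rose in RCF females and 0 fell at an adjusted p under 0.05 (edgeR quasi-likelihood test with Benjamini-Hochberg adjustment), which is 0.00542% of genes higher and 0% lower. An unadjusted p under 0.05 was reached by 1251 genes higher in RCF, or 6.78%, and by 1050 genes lower, or 5.69%, which is 12.5% together. Fitted differences of any size were higher in 51.5% of genes and lower in 48.5%, and their median was 0.01 on the log2 scale. Without RCF library 4, edgeR called 0 genes, or 0%, in either direction, and an unadjusted p under 0.05 was reached by 646 genes higher, or 3.45%, and by 768 lower, or 4.1%. Among the 6 libraries with Th over 100 CPM, edgeR again called 0 genes, or 0%, and an unadjusted p under 0.05 was reached by 360 of 19682 genes, or 1.83%. DESeq2 called 85 genes, or 0.461%, of which 44 were higher and 41 lower, 0.239% and 0.222% of genes. Without RCF library 4 it called 15 genes, or 0.0802%, of which 12 were among the 85. Limma-voom called 0 genes, or 0%, with 2230, or 12.1%, at an unadjusted p under 0.05.

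**Figure D2:**
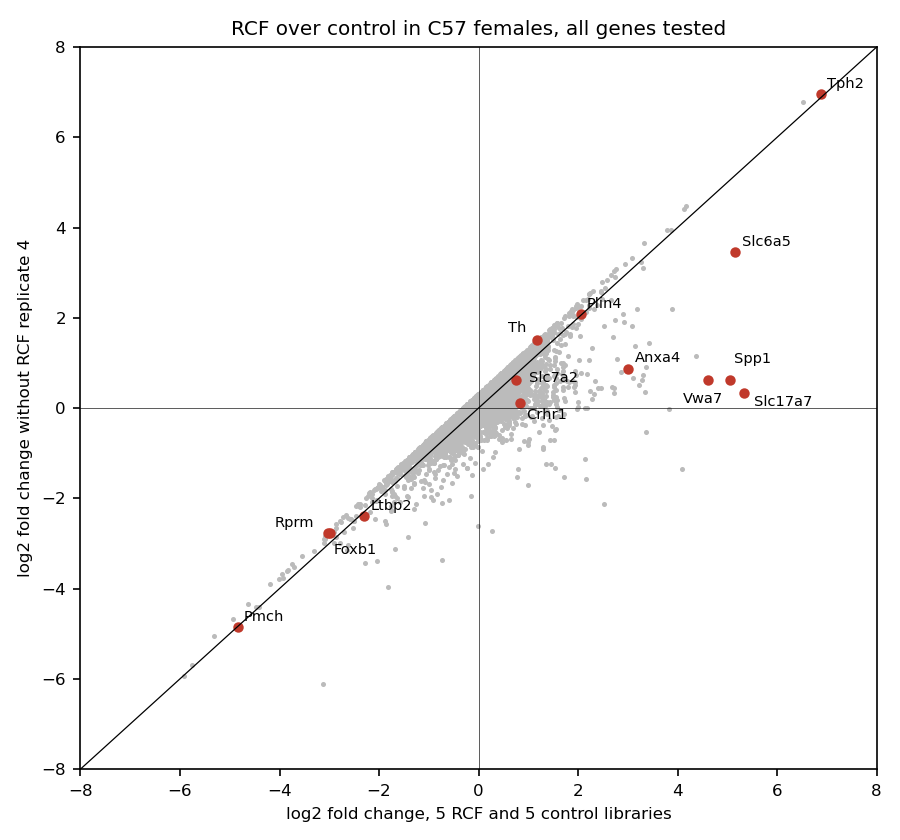
Each gene's log2 fold change, RCF over control, with all 5 RCF libraries (horizontal axis) and without RCF library 4 (vertical axis), with the line of equal values and 14 genes named in red. Spp1, Vwa7 and Slc17a7 lie far below the line, with fold changes of 4.60 or more that are 0.63 or less without library 4, while Tph2, Plin4, Ltbp2, Rprm and Pmch lie on or near it.

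The gene that passed the threshold was Slc6a5 (ENSMUSG00000039728.15, chromosome 7, 49910146 to 49963856, plus strand, GRCm38), which encodes the plasma membrane glycine transporter of glycinergic nerve endings. Tph2, the enzyme that sets the rate of serotonin synthesis in the brain (ENSMUSG00000006764.8, chromosome 10, 115078641 to 115185022, minus strand), had the largest fold change among the 12 genes with the smallest p in the higher direction. The bases just upstream of both genes are shown because both were highest in the same pair of libraries, RCF 4 and RCF 5. They are from RefSeq, GRCm38.p6, 5′ to 3′ on the gene's strand, from chr7:49910049-49910145 for Slc6a5 and chr10:115185023-115185272 for Tph2, with capitals marking a TATAAA match.
Slc6a5: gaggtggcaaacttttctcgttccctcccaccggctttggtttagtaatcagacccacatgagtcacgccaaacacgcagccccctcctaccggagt
Tph2: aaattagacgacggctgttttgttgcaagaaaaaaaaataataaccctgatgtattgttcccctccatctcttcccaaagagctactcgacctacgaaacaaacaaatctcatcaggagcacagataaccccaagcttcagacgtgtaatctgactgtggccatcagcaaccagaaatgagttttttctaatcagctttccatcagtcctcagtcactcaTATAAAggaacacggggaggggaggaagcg
Both strands of these windows were searched for the TATA box TATAAA, the GC box GGGCGG, the cAMP response element TGACGTCA, the ETS-type site GGAAGT and the glucocorticoid receptor core site AGAACA. They were also searched for the full glucocorticoid element, in which AGAACA is followed after NNN by its reverse complement, so every match of it holds the core site. The only match was TATAAA in the Tph2 window. Over 32851 RefSeq mouse promoters of 250 bases, TATAAA was found in 12.4%, GGGCGG in 32.7%, TGACGTCA in 1.55%, GGAAGT in 19.7%, AGAACA in 16.1% and the full element in 0.00913%, while the Slc6a5 window, which stops at the annotated start of the gene, is shorter at 97 bases.

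Slc6a5 was at 1.13, 1.21, 1.64, 56.8 and 14.4 CPM in RCF libraries 1 to 5, against 0.123, 0.869, 0.319, 0.567 and 0.184 CPM in control libraries 1 to 5. Every RCF library lay above every control library, with or without RCF library 4, but most of the group mean came from libraries 4 and 5. It averaged 15.0 ± 24 CPM in RCF females and 0.412 ± 0.307 CPM in controls (SD, 5 libraries each), a log2 fold change of 5.16 (SE 0.91, edgeR adjusted p = 0.0414). Without RCF library 4 the log2 fold change was 3.46 (SE 0.75) and edgeR's adjusted p was 0.325, while DESeq2 gave an adjusted p of 0.00677. It was 3.36 (SE 1.08, edgeR adjusted p = 1) among the 6 libraries with Th over 100 CPM. The call was also lost without control library 1, 2, 4 or 5 (edgeR adjusted p = 0.304, 0.0528, 0.0539 and 0.333). It held when any 1 of the other 5 libraries was left out, with edgeR adjusted p-values from 0.00754 to 0.0394. The glycine receptor subunit gene Glra1, which mediates inhibition by glycine in brainstem and spinal cord, was at 11.3, 10.6, 7.95, 21.1 and 12.1 CPM in RCF libraries 1 to 5 and 4.54, 6.08, 6.02, 7.36 and 5.79 CPM in the controls. Its groups did not overlap either, with a log2 fold change of 1.08 (SE 0.39, edgeR adjusted p = 0.261) that was 0.82 without RCF library 4. Of the 9 genes of glycine transmission tested, 7 were higher and 2 lower, with a median of 0.21.

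Tph2 was at 0.565, 0.209, 0.702, 43.7 and 238 CPM in RCF libraries 1 to 5, against 0.287, 0.0414, 0.798, 1.13 and 0.0919 CPM in control libraries 1 to 5. RCF libraries 4 and 5 were high, and the other 3 lay within the range of the controls. The log2 fold change was 6.88 (SE 1.43, edgeR adjusted p = 0.0689), 6.96 without RCF library 4 and 4.54 without RCF library 5. Fev, the transcription factor that specifies serotonin neurons, was at 0.261, 0.376, 0.187, 1.76 and 13.2 CPM in RCF libraries, against 0.246, 0.207, 0.120, 0.405 and 0.138 CPM in controls. Gata2, a factor of midbrain GABA neurons and of serotonin neuron precursors, was at 8.48, 11.9, 11.6, 10.7 and 29.8 CPM in RCF libraries, against 8.15, 8.69, 9.70, 8.58 and 8.09 CPM in controls. In both genes RCF library 5 was the highest of the 10 and the groups overlapped, and Fev, at a log2 fold change of 3.79, was at 1.48 without it. The serotonin neuron list as a whole summed to 91.5, 88.6, 95.1, 121 and 617 CPM in RCF libraries 1 to 5, against 88.3 to 100.3 CPM in the controls, with 7 of 9 tested genes higher and a median log2 fold change of 0.85. Slc6a5 was highest in RCF library 4, where the Hox genes summed to 196 CPM against 0.771 CPM in RCF library 5, while Tph2 was highest in RCF library 5. The parts of serotonin neuron RNA and of hindbrain RNA in the result for Slc6a5 were not tested.

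A group of genes was high in RCF library 4 alone. Slc17a7, the vesicular glutamate transporter of cortex, hippocampus and precerebellar nuclei, was at 4.17, 4.39, 14.8, 1076 and 4.31 CPM in RCF libraries, against 4.87, 7.36, 7.62, 4.29 and 3.26 CPM in controls. Spp1, which encodes the secreted phosphoprotein osteopontin, was at 4.00, 12.1, 11.5, 886 and 6.77 CPM in RCF libraries, against 4.01, 5.83, 5.31, 7.53 and 5.15 CPM in controls. For both genes the 4 other RCF libraries overlapped the controls. Their log2 fold changes were 5.33 and 5.04 with all libraries, and 0.33 and 0.63 without RCF library 4. Anxa4, a calcium-dependent phospholipid-binding annexin, Ahnak2, a large scaffold protein, and Vwa7 had fold changes of 3.01, 3.10 and 4.60, against 0.87, 0.66 and 0.61 without that library. The same library carried 278 CPM of the potassium channel gene Kcna1, 855 CPM of the calcium sensor Syt2 and 684 CPM of the sodium channel subunit Scn4b. The stress receptor gene Crhr1 (log2 fold change 0.82) and the immediate early gene Fos (0.73) also rested on it, at 87.6 and 53.3 CPM there, and stood at 0.12 and -0.32 without it. The betaine and GABA transporter gene Slc6a12 was at 0.435, 2.84, 2.39, 19.8 and 0.819 CPM in RCF libraries, against 0.287, 0.455, 0.239, 0.0405 and 0.735 CPM in controls, so that RCF libraries 2 and 3 were raised too, and its fold change was 3.89 with and 2.2 without library 4. Fam43a, at 11.3, 11.3, 11.4, 74.1 and 12 CPM in RCF libraries and 9.25, 7.20, 9.02, 6.31 and 9.88 CPM in controls, differed from these: the 4 other RCF libraries still lay above every control, and the fold change was 1.52 with and 0.46 without library 4.

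Plin4 was higher in RCF females with and without that library. The gene (chromosome 17, 56100591 to 56109803, minus strand) encodes a perilipin that coats lipid droplets. It is also a member of the list of glucocorticoid-responsive genes described below, so the 2 results are not separate. Plin4 was at 7.13, 28.2, 2.43, 10.6 and 7.93 CPM in RCF libraries 1 to 5, against 3.07, 2.32, 2.95, 2.10 and 3.12 CPM in the controls. Libraries 1, 2, 4 and 5 lay above every control and RCF library 3 lay within their range. It averaged 11.2 ± 9.92 CPM in RCF females and 2.71 ± 0.470 CPM in controls (SD, 5 libraries each). The log2 fold change was 2.05 (SE 0.43, edgeR adjusted p = 0.0689), 2.07 without RCF library 4, 1.37 without RCF library 2 and 2.18 among the 6 libraries with Th over 100 CPM. DESeq2 without RCF library 4 gave it an adjusted p of 0.00687.

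Some smaller differences did not rest on RCF library 4. Over all genes, 236 had every RCF library above every control, which is 1.28% of genes tested, and 227 had every RCF library below, or 1.23%. These counts ask only that the groups do not overlap, not how even or small a difference is. They include Slc6a5, Fam43a and Lifr, in which RCF library 4 was far the highest. Ikzf1, a zinc finger transcription factor of blood and immune cells, was at 5.48, 3.93, 4.21, 3.21 and 4.83 CPM in RCF libraries, against 2.25, 3.02, 2.67, 2.23 and 1.88 CPM in controls. Rsbn1l, a relative of the histone demethylase Rsbn1, was at 21.5, 26.7, 23.1, 20.1 and 23.7 CPM in RCF libraries, against 20.1, 18.1, 18.8, 16.9 and 18.5 CPM in controls. Neither gene's groups overlapped, although RCF library 4 and control library 1 met at 20.1 CPM for Rsbn1l. Their log2 fold changes were 0.84 (SE 0.22, edgeR adjusted p = 0.162) and 0.32 (SE 0.09, edgeR adjusted p = 0.187), and among the 6 libraries with Th over 100 CPM they were 0.92 and 0.41.

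In Slc38a9, Lifr and Slc7a2 RCF library 4 was the highest of the RCF libraries. Slc38a9, a lysosomal arginine sensor that feeds the mTORC1 pathway, was at 24.4, 28.6, 25.1, 34.8 and 31.5 CPM in RCF libraries, against 23.1, 21.3, 24.3, 21.4 and 19.3 CPM in controls. Lifr, the receptor for leukaemia inhibitory factor, was at 45.4, 52.7, 47.8, 113 and 64.3 CPM in RCF libraries, against 39.3, 36.6, 43.3, 39.8 and 36.9 CPM in controls. The groups of Slc38a9 and Lifr did not overlap, and in Lifr RCF library 4 stood well above the other RCF libraries. Slc7a2, a cationic amino acid transporter, was at 30.9, 27.3, 33.4, 49.6 and 38.2 CPM in RCF libraries, against 21.9, 18.5, 27.8, 19.0 and 18.8 CPM in controls, with an overlap between RCF library 2 and control library 3. The log2 fold changes of Slc38a9, Lifr and Slc7a2 were 0.40, 0.72 and 0.76 (edgeR adjusted p = 0.0965, 0.111 and 0.0889), and without RCF library 4 they were 0.32, 0.42 and 0.61.

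In some genes RCF library 4 was the low one. Fgf2, a growth factor made by astrocytes, was at 12, 10.8, 11, 5.95 and 15.1 CPM in RCF libraries, against 6.75, 5.58, 9.90, 6.88 and 6.94 CPM in controls. Fzd2, a Wnt receptor, was at 15.3, 18.8, 15.6, 12.1 and 20.1 CPM in RCF libraries, against 11.7, 12.5, 12, 12.7 and 10.8 CPM in controls. Without RCF library 4 both groups were separate in both genes. The fold changes were then 0.76 for Fgf2 and 0.55 for Fzd2 (DESeq2 adjusted p = 0.0357 and 0.0395, edgeR adjusted p = 0.326 for both), against 0.61 and 0.45 with it. Ahnak, a large membrane scaffold, had a log2 fold change of 0.70. Its lowest RCF value was in library 1, at 36.6 CPM, against 45.1 CPM in library 4. Slc6a20a, a proline transporter, had a log2 fold change of 0.96. Slc6a20a ran from 6.37 to 22.5 CPM in RCF libraries and from 5.83 to 8.78 CPM in controls. Its highest values, 20.2 and 22.5 CPM in RCF libraries 2 and 3, were in the libraries where meningeal and fibroblast genes summed highest, at 167 and 226 CPM against 52.9 to 109 CPM in the other RCF libraries and 64.0 to 143 CPM in controls, and their part in the result was not tested.

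Among genes lower in RCF females, Ltbp2 and Cfap58 had groups that did not overlap. Ltbp2, an extracellular matrix protein of elastic microfibrils, was at 0.0869, 0.335, 0.374, 0.362 and 0.259 CPM in RCF libraries, against 1.68, 1.57, 0.997, 1.29 and 1.47 CPM in controls. Cfap58, a protein of cilia and flagella, was at 0.0435, 0.0837, 0, 0.104 and 0.172 CPM in RCF libraries, against 0.860, 0.744, 0.199, 0.688 and 0.735 CPM in controls. No RCF library reached the lowest control in either gene, although both are low enough for single reads to count. The log2 fold changes were -2.29 for Ltbp2 (SE 0.52, edgeR adjusted p = 0.107) and -2.91 for Cfap58 (SE 0.71, edgeR adjusted p = 0.136). Among the 6 libraries with Th over 100 CPM they were -2.10 and -2.46, and DESeq2 without RCF library 4 gave Ltbp2 an adjusted p of 0.0311.

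Smaller negative differences were seen in Bri3, Sirt6 and Cluap1. Bri3, a small membrane protein of lysosomes, was at 13.1, 13.9, 15.7, 19.4 and 15.2 CPM in RCF libraries, against 18, 18.7, 20.5, 26.3 and 20.3 CPM in controls. Its groups overlapped only through RCF library 4, and the log2 fold change was -0.42, which was -0.69 among the 6 libraries with Th over 100 CPM. Sirt6, a nuclear deacetylase, was at 15.5 to 17.1 CPM in RCF libraries and 17.8 to 19.8 CPM in controls, a log2 fold change of -0.21. Cluap1, a component of intraflagellar transport, had a fold change of -0.40 and was separate only without RCF library 4.

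Most of the larger negative differences followed control libraries 1 and 5. Rprm, a p53 target that arrests the cell cycle, was at 15.1, 17.8, 15.3, 2.85 and 10.6 CPM in RCF libraries, against 169.9, 37.1, 15.4, 31.7 and 247 CPM in controls. Pcdh20, a cell adhesion protocadherin, was at 8.43, 10.7, 8.23, 4.30 and 9.01 CPM in RCF libraries, against 35.5, 18.2, 11, 14.9 and 66.3 CPM in controls. Actn2, an actin-binding alpha-actinin, was at 3.61, 3.39, 3.69, 1.76 and 3.10 CPM in RCF libraries, against 24, 7.49, 4.19, 4.86 and 28.4 CPM in controls. Control libraries 1 and 5 were the highest in each, control library 3 was the lowest control, and the groups of Pcdh20 and Actn2 did not overlap. The log2 fold changes of Rprm, Pcdh20 and Actn2 were -3.02, -1.84 and -2.14 (edgeR adjusted p = 0.0689 for each), and without RCF library 4 they were -2.77, -1.68 and -1.99.

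The markers that define the hypothalamus and mammillary body had that order too. Foxb1, a transcription factor of the mammillary body, was at 6.22, 8.07, 8.65, 1.97 and 4.53 CPM in RCF libraries, against 104, 15.8, 4.47, 7.16 and 103 CPM in controls. Pmch, the precursor of melanin-concentrating hormone, was at 1.61, 1.09, 1.87, 1.45 and 1.08 CPM in RCF libraries, against 122, 26.4, 0.399, 4.09 and 50.2 CPM in controls. Control libraries 1 and 5 were the highest in both genes, followed by control library 2, and control library 3 lay below most RCF libraries. Of the 14 genes of this list tested, 12 were lower, 9 of them at an unadjusted p under 0.05 against 5.69% of all genes in that direction, with a median of -2.31 on the log2 scale. Among the 6 libraries with Th over 100 CPM the median was 0.18, with 8 genes higher and 6 lower. There the fold changes of Rprm, Pcdh20 and Actn2 were -0.67, -0.50 and -0.39, and those of Foxb1, Nkx2-1 and Hdc were 0.24, -0.22 and 0.31. Pdzph1 and Myh8, at -3.08 and -5.33 with all libraries, were at -1.35 and 0.28 there. Kif26a, at -0.94, was at -0.20, Ptger3, a prostaglandin receptor, at -1.65, was at -0.04, and the zinc finger gene Zik1, at -0.65, was at -0.20. With only 2 controls in that set, the standard error of these values was 0.19 or more.

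**Figure D3:**
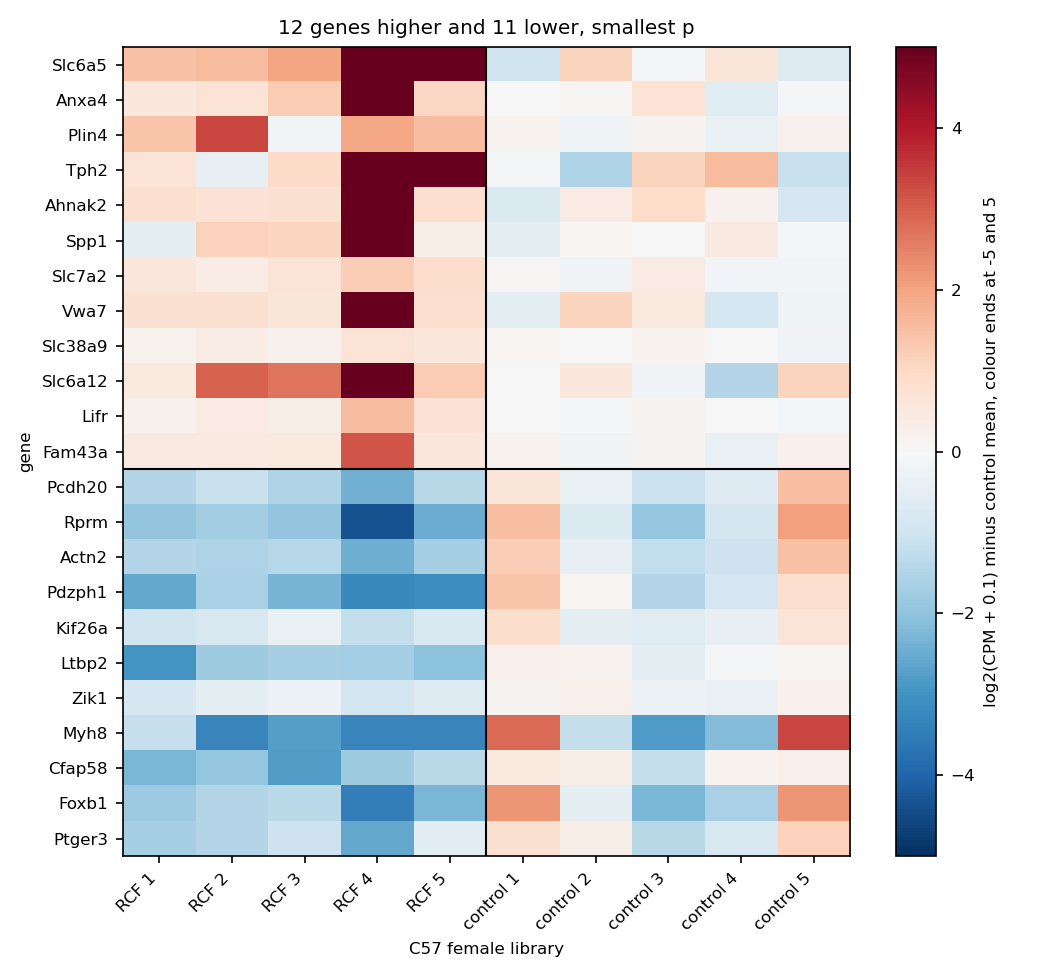
Heat map of 23 of the genes with the smallest p, 12 higher (upper block) and 11 lower (lower block), in the 10 C57 female libraries, RCF at the left and control at the right, coloured by log2(CPM + 0.1) minus the control mean. RCF library 4 carries the strongest colour in Anxa4, Ahnak2, Spp1 and Vwa7, and RCF libraries 4 and 5 in Slc6a5 and Tph2. Control libraries 1 and 5 are the highest in Rprm, Pcdh20, Actn2, Myh8 and Foxb1. In Rprm, Pcdh20, Actn2 and Foxb1 RCF library 4 is the lowest and lies farther from the control mean than they do.

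Glucocorticoids, the adrenal hormones of the stress response, act on the brain through the receptors Nr3c1 and Nr3c2. Of 19 genes known to respond to them that were tested, 19 were higher in RCF females and 0 lower, against 51.5% higher over all genes, with a median log2 fold change of 0.35 against 0.01. An unadjusted p under 0.05 was reached by 9 of them, against 6.78% of all genes in that direction, and without RCF library 4 by 6, against 3.45%, where 18 were higher and the median was 0.19. None passed the threshold in edgeR. All 19 were higher among the 6 libraries with Th over 100 CPM, with a median of 0.26. The mean log2 CPM of the list was 4.15, 4.83, 4.06, 4.70 and 4.27 in RCF libraries 1 to 5, against 4.05, 3.87, 3.92, 3.93 and 4.09 in control libraries 1 to 5. RCF libraries 2 and 4 were the highest, and RCF library 3 lay within the range of the controls.

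Its members did not share one layout. Plin4, described above, is 1 of the 19 and had the smallest p of the list. Its highest values, 28.2 and 10.6 CPM, were in RCF libraries 2 and 4. Sgk1, a kinase induced by glucocorticoids, was at 40.9, 169, 31.2, 174 and 43.3 CPM in RCF libraries, against 48.1, 38.1, 30.8, 36.2 and 41.6 CPM in controls. It was high in RCF libraries 2 and 4 and within the range of the controls in the other 3. Pdk4, which restrains glucose oxidation in mitochondria, was at 8.35, 12.3, 8.51, 15.1 and 11.6 CPM in RCF libraries, against 7.90, 6.49, 7.22, 6.23 and 6.71 CPM in controls. Errfi1, an inhibitor of the EGF receptor, was at 33.8, 39.8, 34.3, 55.2 and 39.0 CPM in RCF libraries, against 29.5, 29.4, 32.7, 30.1 and 31.3 CPM in controls. Pdk4 and Errfi1 were higher in every RCF library than in any control, and 2 of the 19 genes were laid out this way, against 1.28% of all genes. The log2 fold changes of Sgk1, Pdk4 and Errfi1 were 1.23, 0.69 and 0.40 (edgeR adjusted p = 0.211, 0.224 and 0.224), and 0.87, 0.56 and 0.26 without RCF library 4. Fkbp5, a co-chaperone that dampens the receptor, had a fold change of 0.32 (SE 0.14, edgeR adjusted p = 0.345), with its highest value, 32.9 CPM, in RCF library 2. The receptor genes themselves were at 0.04 for Nr3c1 (SE 0.15) and 0.32 for Nr3c2 (SE 0.31).

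Glial lists also had higher medians in RCF females. Of the 18 myelin and oligodendrocyte genes, 18 were higher, with a median of 0.55, and 4 reached an unadjusted p under 0.05, against 6.78% of all genes in that direction. Their summed level was 17257, 14542, 14504, 30052 and 25103 CPM in RCF libraries, against 10542, 16199, 16848, 16605 and 8431 CPM in controls. RCF libraries 4 and 5 were the highest and control libraries 5 and 1 the lowest, while the rest lay close together. Without RCF library 4 the median was 0.35 and all 18 genes were still higher. In that fit 0 of them reached an unadjusted p under 0.05, against 3.45% of all genes in that direction, so the count is near that share. Among the 6 libraries with Th over 100 CPM the median was 0.09. Hapln2, a link protein of the matrix at nodes of myelinated axons, was at 69.1 to 143 CPM in RCF libraries and 37.4 to 79.2 CPM in controls.

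Of the 16 microglia genes, 16 were higher, with a median of 0.30, and 5 reached an unadjusted p under 0.05, against 6.78% of all genes in that direction. The median was 0.34 without RCF library 4, and 8 did, against 3.45%. Csf1r, the receptor that microglia need to survive, was at 98.7, 66.1, 76.6, 64.1 and 73.7 CPM in RCF libraries, against 51.6, 57.7, 69.9, 59.9 and 54.2 CPM in controls. RCF library 1 was the highest and control library 3 overlapped the RCF group. The log2 fold change was 0.37 (SE 0.11, edgeR adjusted p = 0.211), and 0.28 among the 6 libraries with Th over 100 CPM. The list median there was 0.17, with 13 genes higher. An unadjusted p under 0.05 was reached by 0 of the 16 there, against 1.83% of all genes in either direction, so the count is near that share. The cytokine receptor gene Il1r1, at 4.56 to 6.48 CPM in RCF libraries and 2.42 to 4.55 CPM in controls, was separate by a narrow margin, with a fold change of 0.86. Vcan, a matrix proteoglycan of oligodendrocyte precursors, was at 23.7 to 26.3 CPM in RCF libraries and 16.7 to 23.3 CPM in controls, a fold change of 0.35. Endothelial and pericyte genes were higher in 15 of 17, with a median of 0.13, and Abcc9, a potassium channel subunit of pericytes, and Slc2a1, the glucose transporter of brain endothelium, were separate at 0.42 and 0.34. Meningeal and fibroblast genes were higher in 9 of 10, with a median of 0.66, and Igf2, a growth factor of the meninges, was at 1.76 to 9.40 CPM in RCF libraries and 1.28 to 3.67 CPM in controls.

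Several lists of transmitter receptors and neuropeptides had negative medians, with control libraries 1 and 5 high. Of 16 GABA-A receptor subunits, which form the main inhibitory chloride channel, 14 were lower with a median of -0.38, and 8 reached an unadjusted p under 0.05, against 5.69% of all genes in that direction. Gabra2 was at 24.6, 29.3, 30.7, 28.3 and 22.5 CPM in RCF libraries, against 77.7, 43.1, 24.7, 31.6 and 57.9 CPM in controls. Control libraries 1 and 5 were the highest and control library 3 overlapped the RCF libraries. The list median was -0.21 without RCF library 4, where 4 reached an unadjusted p under 0.05, against 4.1% of all genes, and -0.09 among the 6 libraries with Th over 100 CPM. The list of stress hormones and peptide transmitters held 26 tested genes, of which 20 were lower, and their median was -0.77, which was -0.18 among those 6 libraries. They include Npy1r, a neuropeptide Y receptor, at -1.27 and Nts, the precursor of neurotensin, at -1.75. Grm2, a presynaptic metabotropic glutamate receptor, was at 21.9, 24, 18.5, 57.7 and 10.8 CPM in RCF libraries, against 154, 41.0, 16.9, 27.2 and 212 CPM in controls, a fold change of -1.77 that was -0.22 among the 6 libraries.

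Bdnf, the neurotrophin that supports dopamine neurons and synaptic plasticity, was at 29.2, 30.0, 28.8, 33.7 and 17.8 CPM in RCF libraries, against 53.4, 38.0, 29.0, 47.3 and 64.1 CPM in controls. RCF library 5 was the lowest, and control library 3 lay among the RCF libraries. The log2 fold change was -0.73 (SE 0.20, edgeR adjusted p = 0.182), -0.81 without RCF library 4 and -0.52 among the 6 libraries with Th over 100 CPM. The mu opioid receptor gene Oprm1 was at -0.25 (SE 0.44), and at 0.44 among the 6 libraries. Nicotinic acetylcholine receptor subunits, several of which dopamine neurons express, had a median of 0.90 over 9 genes, with 7 higher, and 0.19 among the 6 libraries. The dopamine neuron list, with 22 of 23 genes higher and a median of 1.12, was at 0.24 there, but Th belongs to it and chose those libraries. Th itself had a log2 fold change of 1.18 (SE 1.48, edgeR adjusted p = 0.777) with all 10 libraries.

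Of 81 cytosolic ribosomal protein genes, 73 were lower in RCF females and 8 higher, against 48.5% of all genes lower, with a median log2 fold change of -0.12. Of the lower genes, 20 reached an unadjusted p under 0.05, against 5.69% of all genes in that direction, and 8 did without RCF library 4, against 4.1%, where 71 were lower and the median was -0.09. Every RCF library lay below every control in 7 of them, against 1.23% of all genes. Rpl3, a core protein of the large subunit, was at 294, 280.1, 287, 229 and 275 CPM in RCF libraries, against 310.3, 315, 311, 325 and 329 CPM in controls, a fold change of -0.22 (SE 0.08, edgeR adjusted p = 0.261). The mean log2 CPM of the list was 6.33, 6.17, 6.19, 6.09 and 6.23 in RCF libraries, against 6.21, 6.27, 6.30, 6.45 and 6.35 in controls. RCF library 1 lay among the controls and control library 1 among the RCF libraries. In the 6 libraries with Th over 100 CPM, 76 were lower and the median was -0.13. Nuclear genes of oxidative phosphorylation turned with the libraries used: 27 of 34 were higher with all 10 libraries, with a median of 0.05, and 28 were lower without RCF library 4, with a median of -0.05.

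Other lists lay near the median of all genes, 0.01. Immediate early genes, which neurons switch on with activity, had 8 of 16 higher and a median of -0.07, which was -0.20 without RCF library 4, with 14 lower. Circadian clock genes had 8 of 16 higher, histone deacetylases, sirtuins and DNA methylation enzymes 9 of 18, potassium channels 13 of 26, and calcium, sodium and pacemaker channels 11 of 22, all with medians from -0.02 to 0.00. The longevity and stress deacetylase gene Sirt1 had a log2 fold change of 0.12 (SE 0.13). Xist, the RNA that silences 1 X chromosome in females, was at -0.06 (SE 0.25), and 9 genes linked to X inactivation had a median of 0.02. Astrocyte genes had a median of 0.10, with 9 of 15 higher, and synaptic vesicle genes 0.08, with 18 of 26 higher. The acid-sensing channel gene Asic1 was lower in every RCF library than in any control, with a fold change of -0.33 (SE 0.14, edgeR adjusted p = 0.315). RCF library 4 was far the lowest for Asic1, at 5.67 log2 CPM against 6.44 to 6.59 log2 CPM in the other RCF libraries.

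**Figure D4:**
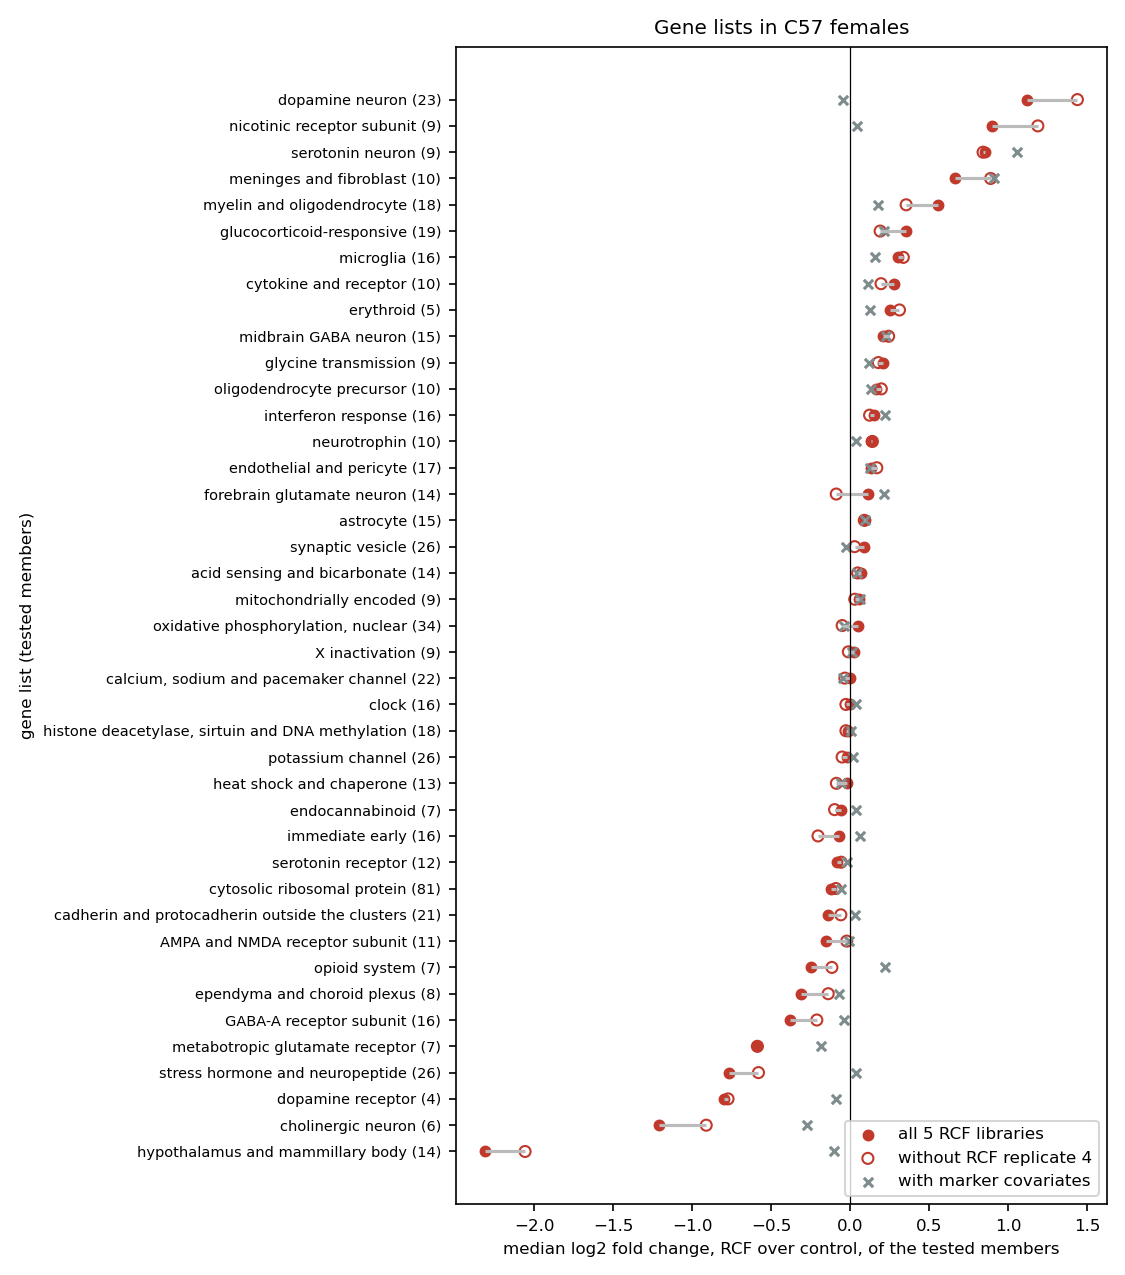
Median log2 fold change, RCF over control, of the tested members of each gene list in C57 females, with all 5 RCF libraries (filled circles), without RCF library 4 (open circles) and with 4 marker levels as covariates (crosses), and the number of members in brackets. The hypothalamus and mammillary body list is lowest at -2.31 and the dopamine neuron list highest at 1.12, and both lie near 0 with the covariates, of which both are part.

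C57 males and DBA females with and without RCF were used to ask whether these differences differ from theirs. The difference between the RCF effects of C57 females and C57 males passed the threshold in 1 of 18441 genes, or 0.00542%, and that between C57 females and DBA females in 1, or 0.00542%. An unadjusted p under 0.05 was reached by 15% and 16% of genes. The gene for the comparison with males was Zfp992, a zinc finger gene in a family of close copies on chromosome 4 (146449023 to 146470292, plus strand), whose counts are uncertain because its reads can match the copies. It was at 0.826, 0.878, 0.187, 0.414 and 0.517 CPM in RCF females, against 0.491, 0.248, 0.239, 0.0405 and 0.184 CPM in control females. The groups of females overlapped, and the log2 fold change was 1.22 (SE 0.43) in C57 females and -2.96 (SE 0.48) in C57 males, a difference of 4.18 (SE 0.64, edgeR adjusted p = 0.00259). The gene for the comparison with DBA females was the unnamed model Gm2451 on chromosome 3, chosen after its values were seen as it falls outside the naming rule. It was at -0.12 in C57 females and -5.53 in DBA females, a difference of 5.42 (edgeR adjusted p = 1.18e-08), with the larger value in DBA females.

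Slc6a5 had log2 fold changes of 5.16 in C57 females, 0.62 (SE 0.81) in C57 males and -0.78 (SE 0.86) in DBA females. The differences were 4.55 (edgeR adjusted p = 0.148) and 5.94 (edgeR adjusted p = 0.145), so neither passed the threshold. Tph2 was at 6.88 in C57 females and -3.34 in C57 males, a difference of 10.22 (SE 1.92, edgeR adjusted p = 0.0632). Plin4 was at 2.05 in C57 females, 0.21 in C57 males and -0.46 in DBA females, and Ltbp2 at -2.29, 0.19 and 0.72. Their differences from males had edgeR adjusted p-values of 0.172 and 0.155, and those from DBA females 0.145 for both. Among other genes with the smallest p for a difference, Slc6a12 had a log2 fold change of 3.89 in C57 females and -1.93 in C57 males, a difference of 5.82, and Rxrg, a retinoid receptor, had a difference of -1.79 (edgeR adjusted p = 0.148 for each). The glucocorticoid-responsive list had a median of 0.35 in C57 females, 0.01 in C57 males and -0.23 in DBA females. The microglia list was at 0.30, -0.17 and -0.15, the myelin list at 0.55, -0.37 and -0.38, and the hypothalamus list at -2.31, 0.47 and 0.33. The dopamine neuron list was higher in all 3, at 1.12, 0.96 and 1.22. The differences between these medians were not tested.

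**Figure D5:**
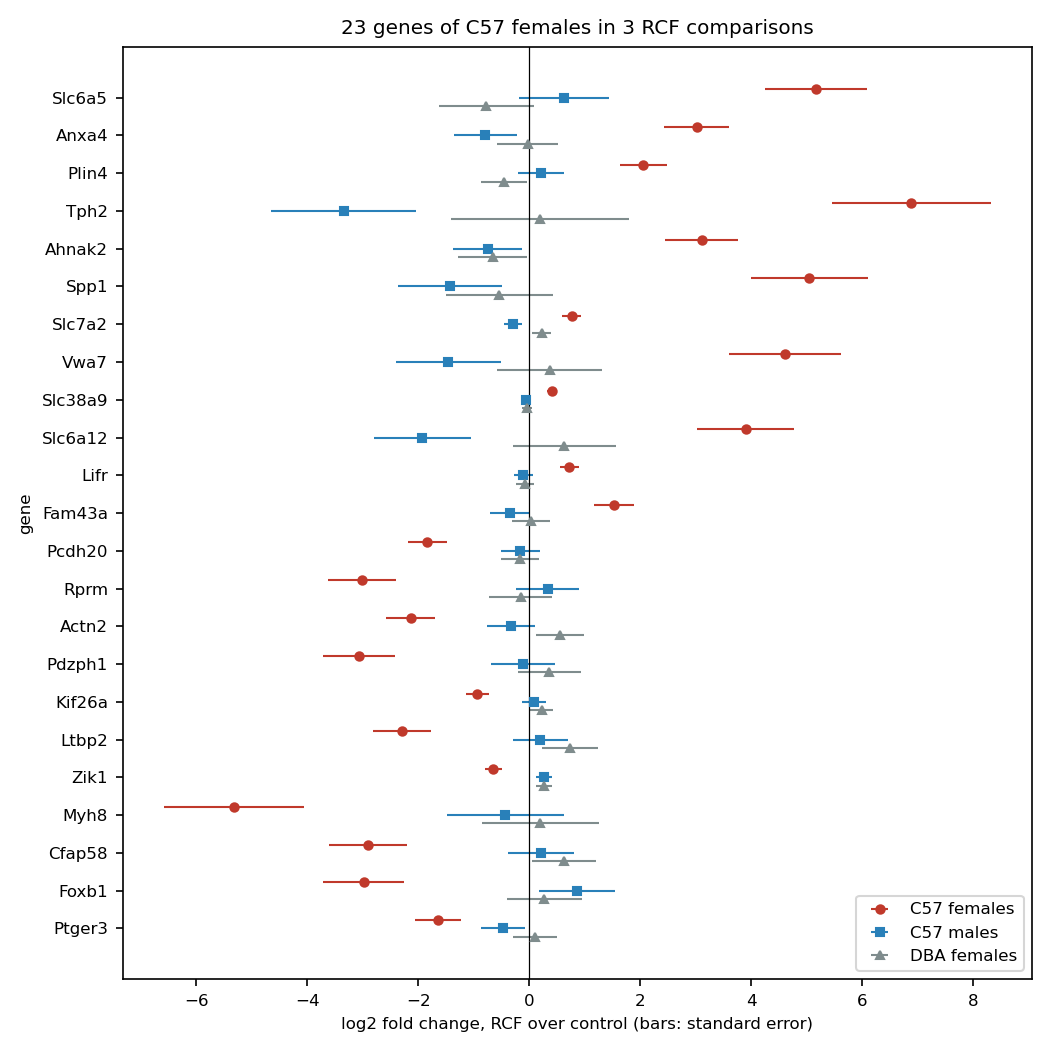
Log2 fold change, RCF over control, with standard error, of 23 of the genes with the smallest p in C57 females (red circles), beside the same genes in C57 males (blue squares) and DBA females (grey triangles). These genes were chosen in C57 females, so their larger size there is part of the choice, and the value farthest from 0 in the other groups is Tph2 at -3.34 in C57 males.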

How the data were processed

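Polyadenylated RNA of mouse VTA punches was extracted on Norgen columns, made into stranded libraries with a Tecan Universal Plus kit and read from 1 end over 75 nt on an Illumina NextSeq, per the labels' protocols. The submitters' processing notes name cutadapt 1.11, bcl2fastq 2.20 and FastQC, and GRCm38 (mm10) as genome build. For the aligner, counter, strand setting and gene annotation the entry is: not given in the sources used here. Hence overlapping, antisense and near-identical genes are uncertain. The authors deposited raw counts (whole numbers, not normalized) for 55471 genes, of which 42664 had a count. Symbols came from the Ensembl identifier with its version for 54573 genes, and for 657 the version was ignored.

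All 40 libraries were fitted together with a mean per group in edgeR 4.0.16 under R 4.3.3, with TMM factors and the robust quasi-likelihood F test. FilterByExpr over the 8 groups left 18441 genes. P-values were adjusted by Benjamini-Hochberg over all genes tested, with a threshold of 0.05, and log2 fold changes had a median standard error of 0.18. Values are CPM scaled by TMM, means ± SD are over libraries, and list means use log2 CPM with a prior count of 2. Total counts were 16913124 to 28179071 per library, and counting error only is covered by depth. All 20 pairs of libraries within a group differed beyond counting noise, at a chi-square of 5.51 to 141 for each degree of freedom, so none was treated as a duplicate. Alternatives were DESeq2 1.42.0, limma 3.58.1 voom, RLE size factors, no filter, the compared libraries alone, a replicate block, marker covariates (mean levels of the dopamine neuron, hypothalamus, Hox and forebrain glutamate neuron lists) and leaving out each library. Voom with sample quality weights, the covariates without RCF library 4, and the 6 libraries with Th of at least 100 CPM were chosen after seeing the data.

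The comparison, its members and the gene lists were chosen with earlier results of these data known, so lists are described by counts and medians, not tested. Named were genes past the threshold, the 12 smallest p in each direction, the 10 smallest in each direction without RCF library 4, up to 4 per list, the 4 smallest in each direction for each difference between effects, and a short set of stress, dopamine and marker genes. Gene models without a name were left out of these choices, and some genes that the rule names are not reported here. Promoter bases are from RefSeq for GRCm38.p6 (161 of 206 named genes matched).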

Additional observations from a re-analysis of the deposited data

Results flagged for a closer look

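Single libraries stood far from the other 4 of their group in 45 of 348 groups of 5 values tested, where the gap to the nearest library, as a share of the group's range, was above Dixon's critical value of 0.71. Chance would give about 1 in 20 groups only if the groups were independent and not chosen from these data. These groups are genes reported here and the gene lists, and many of the genes were picked by p in the same libraries. The count therefore cannot be set against that rate, and the dopamine neuron genes restate the low Th of RCF library 4. RCF library 4 was the library that stood out in 36 of the 45. On the log2 CPM scale its gap ratios were Pcdh20 0.711, Anxa4 0.838, Rprm 0.715, Actn2 0.763, Ahnak2 0.974, Spp1 0.796, Vwa7 0.972, Fam43a 0.967, Cenpb 0.854, Slc17a7 0.773, Crhr1 0.801, Asic1 0.833, Fos 0.761, Ddc 0.848 and Drd2 0.949. They were also Slc18a2 0.858, Th 0.925, Slc6a3 0.96, Aldh1a1 0.752, Pitx3 0.894, Emx2 0.801, Gabrg3 0.926, Htr7 0.926, Kcna1 0.892, Syt2 0.746, Cdh7 0.718, Pcdh19 0.77, Rpl3 0.723 and Asic2 0.863. For the means of gene lists the ratios in that library were the dopamine neuron list 0.926, the hindbrain Hox list 0.955, the stress hormone and neuropeptide list 0.961, the opioid system list 0.786, the dopamine receptor list 0.858, the nicotinic receptor subunit list 0.913 and the cadherin and protocadherin outside the clusters list 0.895. In Th, Slc6a3, Slc18a2, Ddc, Drd2, Pitx3 and Aldh1a1, genes of dopamine neurons, RCF library 4 was the low one, and in Spp1, Vwa7, Anxa4, Slc17a7, Kcna1 and Syt2 it was the high one. Elsewhere, RCF library 1 stood out in Myh8 0.731 and Grm7 0.719, RCF library 2 in Aqp4 0.784 and RCF library 5 in Bdnf 0.753 and Gata2 0.73. Control library 3 stood out in Cfap58 0.833, Cluap1 0.852 and Il1r1 0.716, and control library 2 in the forebrain glutamate neuron list 0.743.

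The RCF effect differed between groups in 2 genes. For Zfp992 the log2 fold change in C57 females minus that in C57 males was 4.18 (edgeR adjusted p = 0.00259). For Gm2451 the log2 fold change in C57 females minus that in DBA females was 5.42 (edgeR adjusted p = 1.18e-08).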

How the results depend on the processing

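In C57 females edgeR called 1 gene with TMM or RLE factors. It called 0 with no filter, the compared libraries alone, the replicate block, or the marker covariates with or without RCF library 4. It also called 0 among the 6 libraries with Th over 100 CPM. Limma-voom called 0 genes with or without RCF library 4. DESeq2 called 85 genes, 15 without RCF library 4, and voom with sample quality weights, chosen after seeing the data, 85. Leaving out 1 library gave 0 to 25 calls, with 0 without RCF library 4 or control library 1, 2 or 5, and 25 without control library 3. Same-numbered libraries did not deviate together (correlations -0.148 to 0.0837, 0 of 5 over 0.1, 1 RCF library closest to its own number), so the block, with Slc6a5 at 3.85 (edgeR adjusted p = 0.424), pairs numbers only. Slc6a5 kept its direction in all settings, and edgeR's adjusted p was 0.116 with no filter, 0.331 for the compared libraries alone and 1 with the covariates, where the fold change was 3.42. For the difference from C57 males, 1 gene passed, against 128 by DESeq2, 8 by DESeq2 without RCF library 4, 2 with the replicate block, 2 with the 6 libraries, 0 for the compared libraries alone, 0 with the covariates with or without RCF library 4, and 1 to 6 when 1 library was left out. For the difference from DBA females, 1 passed, against 80 by DESeq2, 2 by DESeq2 without RCF library 4, 270 by voom with quality weights, and 1 in each leave-one-out fit. Of 1565 gene values under settings other than leaving out a library, 1461 kept direction and side of the threshold, 9 lost it, 57 gained it and 38 turned sign. With marker covariates, with and without RCF library 4, the log2 fold changes that turned were -0.25 and -0.21 for Crhr1, -0.24 and -0.093 for Slc18a2, -0.044 and -0.13 for Th, -0.21 and -0.19 for Slc6a3, 0.58 and 0.69 for Oprm1, and 0.035 and 0.035 for Slc1a3; Xist was 0.029 with them, and Drd2 -0.0068 and Drd3 0.084 only without that library. Th, Slc6a3, Slc18a2 and Drd2 are in the covariates. Among the 6 libraries with Th over 100 CPM, Myh8 was 0.28, Foxb1 0.24, Hdc 0.31, Prph 0.58, Kcnj11 -0.032, Crhr1 -0.12, Oprm1 0.44, Gm2451 0.18, Xist 0.15, Slc1a3 0.072, Drd3 0.017 and Oprd1 -0.13. Without RCF library 4, Fos was -0.32 by DESeq2 and -0.14 by voom, Oprd1 -0.39 and -0.64, Neurod2 -0.13 and -0.097, and Nr3c1 -0.0061 by voom. With quality weights, Fos was -0.21, Oprd1 -0.25, Nr3c1 -0.023 and Gchfr -0.059. Leaving out 1 library gave ranges of -0.32 to 0.93 for Fos, -0.39 to 0.091 for Gm2451, -0.0039 to 0.094 for Nr3c1, -0.16 to 0.051 for Xist, -0.13 to 2.08 for Neurod2 and -0.40 to 1.76 for Oprd1. Of 492 list medians, 462 stayed within their spread and 30 moved, among them the hypothalamus list at -0.10 and the neuropeptide list at 0.04 with the covariates. The cause of these shifts was not tested. Depth of 21208208 counts or more leaves genes under 1 CPM resting on few reads.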

Other observations

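Some gene groups had values not yet given. Interferon response genes were higher in 10 of 16, with a median log2 fold change of 0.15, and Ifit2, which restrains translation in infected cells, was at -0.78 with all libraries and -0.05 among the 6 libraries with Th over 100 CPM. Cytokine and receptor genes were higher in 9 of 10, with a median of 0.28 that was 0.07 among those 6 libraries. Genes of cholinergic neurons were lower in 6 of 6, with a median of -1.21, and the median was 0.09 among those 6 libraries. Arntl, a core activator of the circadian clock, was at -0.55 and -0.36. In the adhesion genes of the cadherin and protocadherin list, 14 of 21 were lower with a median of -0.14, and RCF library 4 had the lowest mean level, 4.38 log2 CPM, against 5.50 to 5.73 log2 CPM in the controls. The gap between the medians of nicotinic receptor genes in C57 females and in DBA females, 0.90 and 1.5, was not tested.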
